A study of Mus musculus with 6 samples.

Results

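The ASXL paralogues and the core of the BAP1 deubiquitinase complex were followed through a microarray comparison of mouse bone marrow. The genes were Asxl1, Asxl2, Asxl3, Bap1, Hcfc1, Ogt, Foxk1, Foxk2, Mbd5 and Mbd6, chosen by name. A probe set was taken where the platform annotation gave it exactly 1 of these symbols, which gave 29 of the 45037 probe sets of the table and 9 of the 10 genes. No RNA value is given for Mbd5, since no probe set carried its symbol. The 3 ASXL1-MT samples were myeloid marrow cells of mice transplanted with ASXL1-MT, whose illness the labels describe as resembling myelodysplastic syndrome, and the 3 mock samples came from mock-transplanted mice labelled as normal controls. By the series text, marrow of both groups was passed over magnetic beads to remove cells with the T cell marker CD3e, the B cell marker B220 or the red cell marker TER-119, while the source label states this removal for mock alone. The labels give neither strain, age nor time after transplant, nor the form or species of the transplanted ASXL1, nor whether the 3 samples of a group were separate mice. The p-values therefore cover no more than differences among 6 arrays that may be technical replicates.

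BAP1 is an enzyme that removes ubiquitin from histone H2A, the mark that Polycomb repressive complex 1 places on chromatin. It works only when bound to an ASXL protein, whose N-terminal region activates it. The complex also holds the cofactor HCF-1 (Hcfc1), the sugar transferase OGT, the DNA-binding forkhead proteins FOXK1 and FOXK2 and the methyl-CpG-binding family proteins MBD5 and MBD6. In blood, truncating mutations of human ASXL1 recur in myelodysplastic syndrome, and loss of Bap1 in mice gives a myelodysplasia-like disease. The comparison shows how RNA of these genes differed between diseased and control marrow.

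Values are log2 signals that the deposited table gives relative to each probe set's median over the 6 arrays. They show differences between arrays but no absolute level, so genes cannot be ranked by expression. A probe set is called bright where the rounding of its 3 highest arrays is that of log2 signals of 8 or more, a signal of 256. Lower signals have a finer rounding that can coincide with this one, so some can meet the rule, at a rate not measured. Of the 29 probe sets, 19 were bright, with 1 or more for every measured gene except Asxl3. A change is ASXL1-MT minus mock in group means, tested with limma over all probe sets, and a call means a Benjamini-Hochberg adjusted p under 0.05.

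The groups also differed in cell markers, to be read against 11.4% of all genes called, 6.63% higher and 4.75% lower. All 6 measured myeloid markers were bright, and 3 were lower in ASXL1-MT (Csf3r, Itgam and Elane, by 2.53-fold, 2.24-fold and 2.09-fold). The other 3 changed little and were not called by limma. Their log2 changes were -0.18 for Mpo (adjusted p = 0.509), -0.16 for Lyz2 (adjusted p = 0.542) and -0.01 for Csf1r (adjusted p = 0.973). Of 5 megakaryocyte markers 3 were lower (Pf4, Itga2b and Gp1bb, by 5.44-fold, 2.59-fold and 2.01-fold), and their mean values ran from -1.44 to -0.50 in ASXL1-MT against 0.22 to 1.35 in mock. Gp1bb had no bright probe set, and by its probe set of smallest spread the change was -0.10 (adjusted p = 0.696). Of 4 red cell markers, none of them bright, 1 was called, Alas2, which was higher, and their means ran from 0.60 to 2.06 in ASXL1-MT against -1.61 to -0.61 in mock. The log2 change of Alas2 was 3.98, and 3.15 without ASXL1-MT replicate 1, so its size is uncertain. None of the 4 T cell markers was bright or called, with means of -1.12 to 0.33 in ASXL1-MT against -0.43 to 1.12 in mock. Among them Cd3d had separate groups, with a log2 change of -2.82 (adjusted p = 0.0613 by limma), while Cd3g (-1.38, adjusted p = 0.622), Cd3e (0.78, adjusted p = 0.64) and Cd4 (-0.04, adjusted p = 0.96) gave values of both signs. Leaving out an array moved Cd3g between -3.13 and -0.32. Of 4 B cell markers Cd79b was higher (log2 change 0.96, adjusted p = 0.0315), and the other 3 had negative changes that did not pass, -1.54 for Ms4a1, -0.65 for Cd79a and -0.13 for Pax5. The B cell means ran from -0.44 to 0.06 in ASXL1-MT against -0.43 to 0.55 in mock. With 1 array left out, Csf3r, Itgam, Alas2 and Cd79b lost their calls in all 6 fits, and Elane, Pf4, Itga2b and Gp1bb passed in 1 or 2. The part of these shifts in the results below was not tested, and fewer cells of a type cannot be told apart from less RNA per cell.

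Few probe sets of the complex passed the test, and those of several of its genes moved apart. Of 29 probe sets, 2 passed the test (6.9%), 1 of Asxl1 lower and 1 of Asxl2 higher in ASXL1-MT. Over all probe sets the share was 8.1%, with 4.73% higher and 3.37% lower, so the calls were near the background. At an unadjusted p under 0.05 there were 9 members (31.0%), against 26.3% of all probe sets. The members' median change was 0.25, against 0.106 for all probe sets, and their median absolute change was 0.33 against 0.53. In 17 members (58.6%) the 3 ASXL1-MT arrays did not overlap with the 3 mock arrays, 11 higher and 6 lower, against 35.4% of all probe sets, 21.7% higher and 13.7% lower. The count differed with brightness. Among bright probe sets 15 of 19 members (78.9%) had separate groups, against 55.4% of all bright probe sets. Of the other 10 members 2 did, against 35.4% of all probe sets, bright or not. The share among all probe sets that are not bright was not worked out, so nothing is read from those 2. Of the 19, 17 had all 6 arrays on the bright rounding step, while 1451752_at of Foxk1 was bright through its mock arrays and 1440689_at of Foxk2 through its ASXL1-MT arrays. These 2 entered through their higher group, so the shares among bright probe sets are descriptions. The median within-group SD was 0.18 for bright members and 0.50 for the others.

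**Figure D1:**
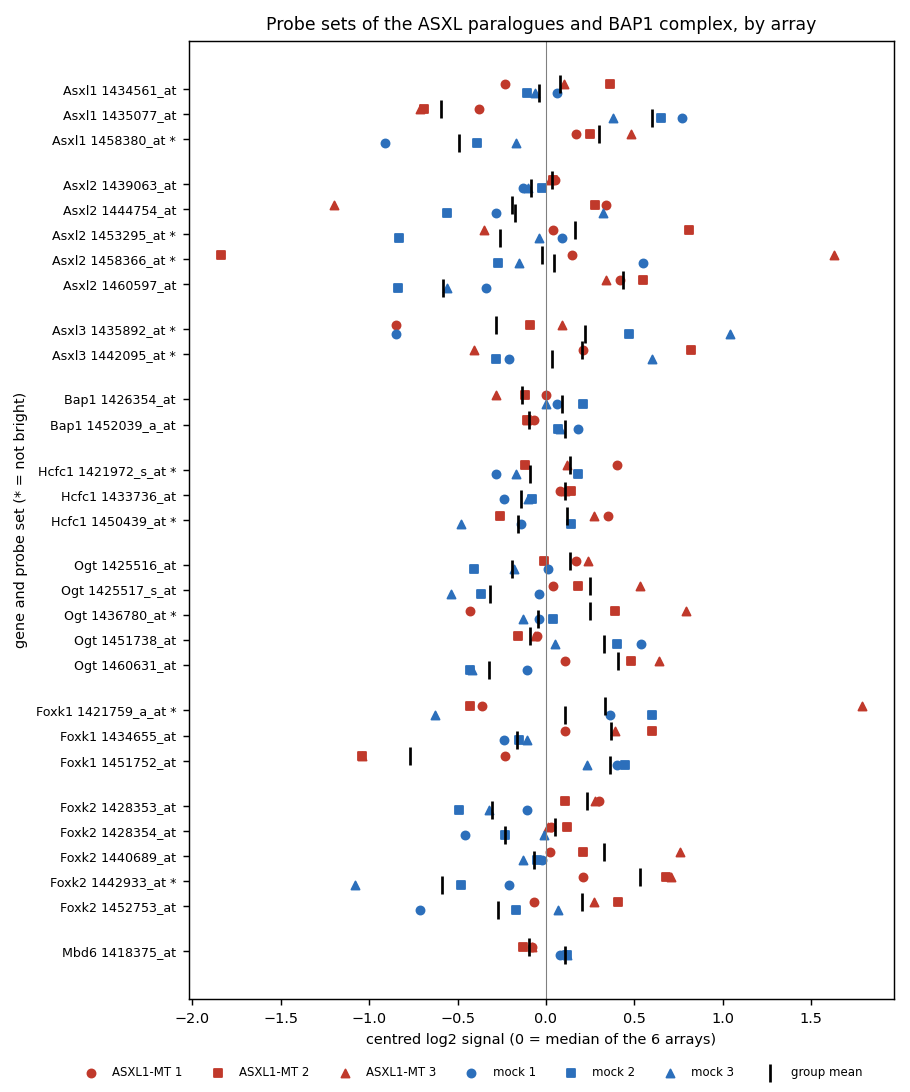
Centred log2 signal of each of the 29 probe sets on the 3 ASXL1-MT arrays (red) and the 3 mock arrays (blue), with marker shapes for replicate numbers and black bars for group means. Probe sets marked * are not bright. The groups separate in 17 probe sets, and 1435077_at of Asxl1 lies lower in ASXL1-MT while 1460597_at of Asxl2 lies higher.

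Asxl1, the paralogue mutated in myeloid disease, had 3 probe sets that went different ways. Probe set 1435077_at was -0.38, -0.69 and -0.71 in ASXL1-MT replicates 1 to 3, against 0.77, 0.65 and 0.38 in mock replicates 1 to 3. Every ASXL1-MT array lay below every mock array, and the 2.29-fold lower signal passed the test (log2 change -1.19, SE 0.19, adjusted p = 0.0298 by limma). Leaving out any of the 6 arrays lost the call, with changes of -1.30 to -1.11. Probe set 1434561_at, also bright, was -0.23, 0.36 and 0.10 in ASXL1-MT marrow, against 0.06, -0.11 and -0.06 in mock marrow. There the groups overlapped, with a change of 0.11 and a 95% interval of -0.40 to 0.63. Probe set 1458380_at, which was not bright, was 0.17, 0.25 and 0.48 in the ASXL1-MT arrays, against -0.91, -0.39 and -0.17 in the mock arrays. It was separate in the upward direction but did not pass (log2 change 0.79, adjusted p = 0.115). The labels do not say which part of the transcript each probe set reads or whether any reads the transplanted ASXL1, so none of them checks the group labels.

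The start regions of Asxl1 and Asxl2, the genes of the called probe sets, are shown with matches to motifs of HCF-1 partners. HCF-1 is known to be brought to DNA by ZFP143 with THAP11, by ETS factors such as GABPA and by YY1. The windows run from 250 bases before to 50 bases after the start, on the + strand of GRCm38.p6, from RefSeq. Asxl1 lies at chr2:153345580-153345879 and Asxl2 at chr12:3426607-3426906. Capitals mark motif matches on either strand, and no matches overlapped.
Asxl1: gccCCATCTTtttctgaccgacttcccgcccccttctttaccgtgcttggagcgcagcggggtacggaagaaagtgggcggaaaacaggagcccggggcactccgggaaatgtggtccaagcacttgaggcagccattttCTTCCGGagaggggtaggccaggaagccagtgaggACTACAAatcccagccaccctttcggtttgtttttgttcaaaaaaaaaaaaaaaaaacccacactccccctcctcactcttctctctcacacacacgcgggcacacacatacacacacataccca
Asxl2: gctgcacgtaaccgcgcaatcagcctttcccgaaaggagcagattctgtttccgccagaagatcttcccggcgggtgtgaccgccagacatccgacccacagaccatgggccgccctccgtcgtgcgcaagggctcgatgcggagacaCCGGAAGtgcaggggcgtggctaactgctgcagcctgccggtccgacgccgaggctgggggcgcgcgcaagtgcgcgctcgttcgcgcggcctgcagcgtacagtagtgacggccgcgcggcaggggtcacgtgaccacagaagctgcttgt
In Asxl1 the capital run nearest the start is a match to ACTACAA, the core letters of the ZFP143 and THAP11 motif. Of 32851 RefSeq windows 3.24% hold it, and no other member window examined held it. The ETS motif CCGGAAG stands in both windows, reversed in Asxl1, and in windows of Hcfc1 and Mbd5, and 8.86% of windows hold it. The YY1 motif AAGATGG stands reversed at the left end of the Asxl1 window and at 2 positions in that of Hcfc1, and 6.34% of windows hold it. The forkhead motif GTAAACA was in none of the 11 windows of 8 member genes examined, and 3.65% of all windows hold it. These matches are letters in a window and show no binding.

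Asxl2, a paralogue that likewise binds and activates BAP1, had 5 probe sets, of which 1 was called. Probe set 1460597_at was 0.42, 0.55 and 0.34 in ASXL1-MT marrow, against -0.34, -0.84 and -0.56 in mock marrow. All ASXL1-MT arrays were above all mock arrays, 2.02-fold higher on average (log2 change 1.01, SE 0.19, adjusted p = 0.0398 by limma). The call was lost after quantile normalization (adjusted p = 0.0582) and cyclic loess (adjusted p = 0.0588), and on leaving out any array, with changes of 0.88 to 1.13. The tightest probe set of the gene, 1439063_at, was 0.05, 0.04 and 0.02 in the ASXL1-MT arrays, against -0.13, -0.02 and -0.10 in the mock arrays. The groups were separate there too, but the change was 0.12 with a 95% interval of -0.22 to 0.45, which leaves out the size seen at 1460597_at. Of the other 3 probe sets, 1444754_at was bright and had an ASXL1-MT replicate 3 at -1.20 beside 0.34 and 0.28 in replicates 1 and 2. In 1458366_at, which was not bright, ASXL1-MT ran from -1.84 to 1.63, wider than its mock range of -0.27 to 0.55.

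Asxl3, a paralogue best known from the nervous system, was the only measured gene without a bright probe set. Probe set 1435892_at was -0.85, -0.09 and 0.09 in ASXL1-MT marrow, against -0.85, 0.47 and 1.04 in mock marrow. Its 2 lowest arrays, 1 in each group, held exactly the same value. Probe set 1442095_at was 0.21, 0.82 and -0.41 in the ASXL1-MT arrays, against -0.21, -0.28 and 0.60 in the mock arrays. The groups overlapped in both, and the gene's 95% interval of -1.17 to 0.84 allows a change of either sign.

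Bap1, the catalytic subunit, was read by a pair of bright probe sets that moved together. The annotation gives both the same sequence record, so they may not be independent readings. Probe set 1452039_a_at was -0.07, -0.11 and -0.11 in ASXL1-MT marrow, against 0.18, 0.07 and 0.08 in mock marrow. Probe set 1426354_at was -0.0025, -0.12 and -0.28 in the ASXL1-MT arrays, against 0.06, 0.21 and 0.0025 in the mock arrays. In each the ASXL1-MT arrays lay below the mock arrays, by log2 changes of -0.21 and -0.22. Neither passed (adjusted p = 0.384 and adjusted p = 0.43 by limma), and the gene's 95% interval ran from -0.53 to 0.10, or 1.16-fold lower at the estimate.

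Mbd6, a partner of the complex, showed a shift of the same size. Its only probe set, 1418375_at, was bright, at -0.08, -0.13 and -0.08 in ASXL1-MT marrow against 0.08, 0.12 and 0.12 in mock marrow. The groups were separate and each had little spread (SD 0.03 and 0.02, n = 3 each), but the change of -0.20 did not pass (adjusted p = 0.391 by limma).

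Hcfc1 encodes HCF-1, a coregulator that carries BAP1 to promoters. The bright probe set 1433736_at was 0.08, 0.14 and 0.11 in the ASXL1-MT arrays, against -0.24, -0.08 and -0.10 in the mock arrays. These groups were separate, with a change of 0.25 (95% interval -0.10 to 0.59, adjusted p = 0.324). The other probe sets, 1421972_s_at and 1450439_at, were not bright and had changes of 0.22 and 0.28 with overlapping groups. All 3 probe sets pointed up by nearly the same amount, though 1421972_s_at and 1450439_at share a sequence record in the annotation.

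Ogt encodes the transferase that adds N-acetylglucosamine to nuclear proteins and cuts HCF-1 into its mature parts. Its 5 probe sets disagreed. Probe set 1460631_at was 0.11, 0.48 and 0.64 in ASXL1-MT marrow, against -0.11, -0.43 and -0.42 in mock marrow. Probe set 1451738_at was -0.05, -0.16 and -0.06 in the ASXL1-MT arrays, against 0.54, 0.40 and 0.05 in the mock arrays. Both were bright with separate groups, yet the first had a log2 change of 0.73 and the second of -0.42, neither of them called (adjusted p = 0.10 and adjusted p = 0.223). The remaining 3 had changes between 0.29 and 0.57, and 1425517_s_at among them had separate groups.

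Foxk1 and Foxk2 encode the forkhead proteins that tether the complex to DNA. Foxk1 was split like Asxl1. Probe set 1451752_at was -0.23, -1.04 and -1.04 in ASXL1-MT marrow, against 0.40, 0.45 and 0.23 in mock marrow. Probe set 1434655_at was 0.11, 0.60 and 0.39 in the ASXL1-MT arrays, against -0.24, -0.15 and -0.11 in the mock arrays. The groups were separate in opposite directions, with log2 changes of -1.13 (adjusted p = 0.0682) and 0.53 (adjusted p = 0.146), both bright and neither called. Of the arrays of 1451752_at 4 of 6 showed the rounding of bright signals, so it counts as bright through its mock arrays. The third probe set, 1421759_a_at, was not bright and had ASXL1-MT replicate 3 at 1.79 beside -0.36 and -0.43.

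The probe sets of Foxk2 all pointed up. The 5 had positive changes, from 0.29 to 1.12, and in 4 of them the groups were separate. Over all probe sets 21.7% were separate upward, and 55.4% of bright ones were separate in either direction. Probe sets 1428353_at, 1428354_at and 1452753_at share a sequence record in the annotation, so the 5 may not be independent readings. The largest change was in 1442933_at, which was not bright. Its values were 0.21, 0.68 and 0.71 in ASXL1-MT marrow, against -0.21, -0.48 and -1.08 in mock marrow. The bright 1428353_at was 0.30, 0.11 and 0.28 in the ASXL1-MT arrays, against -0.11, -0.49 and -0.32 in the mock arrays. The exception to separation was 1452753_at, where ASXL1-MT replicate 1 at -0.07 lay below mock replicate 3 at 0.07. None passed the test on its own, though 1442933_at did with trend and robust settings (adjusted p = 0.0359, against 0.0818).

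**Figure D2:**
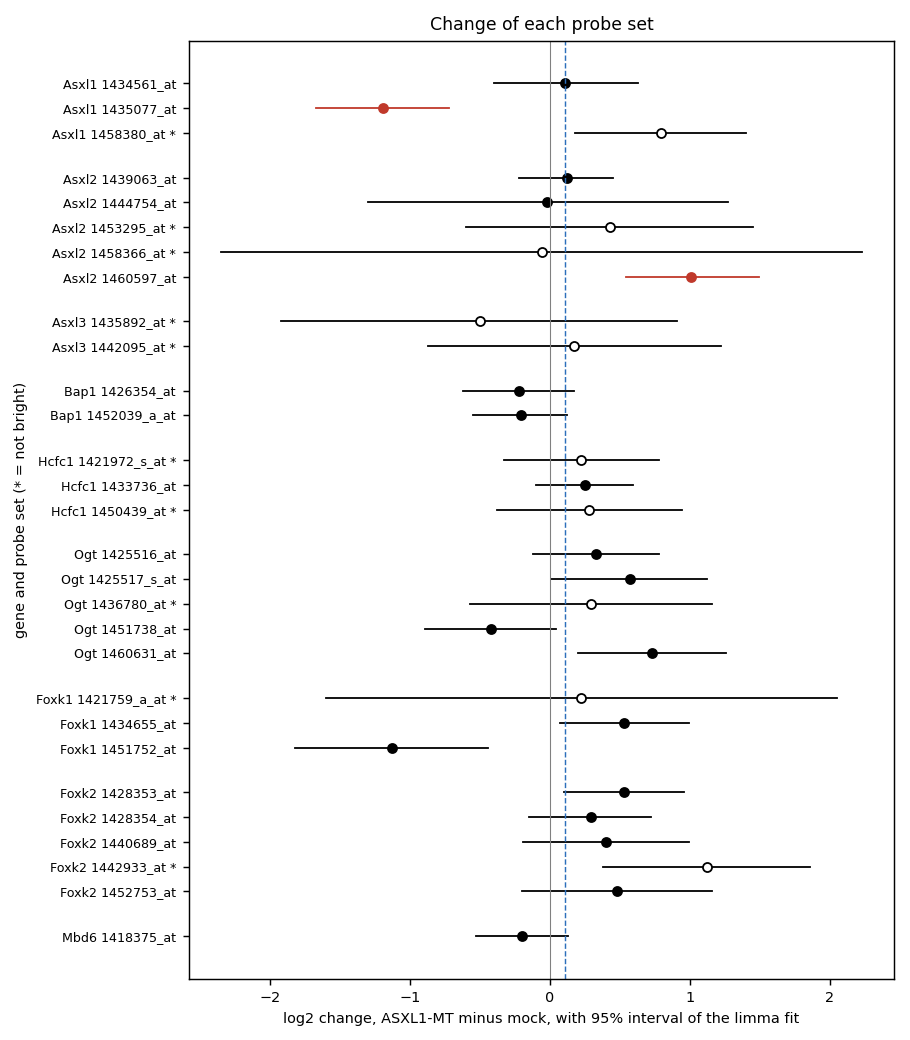
Log2 change (ASXL1-MT minus mock) of each probe set with its 95% interval from the limma fit; filled points are bright, open points and * are not, red marks an adjusted p under 0.05, and the dashed line is the median of all probe sets at 0.106. The 5 Foxk2 points lie right of 0, the Bap1 and Mbd6 points lie left, and those of Asxl1, Ogt and Foxk1 lie on both sides.

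The distance between probe sets of a gene was set beside that of all genes with as many bright probe sets, as a description. For Asxl1 the changes of its 2 bright probe sets lay 1.31 apart, more than in 96.6% of the 2190 genes with 2, whose median was 0.23. For Foxk1 they lay 1.66 apart, a distance that includes 1451752_at, bright through its mock arrays. For Bap1, whose probe sets share a sequence record, they lay 0.01 apart, less than in most, with 3.93% of genes closer. The 4 bright probe sets of Ogt spanned 1.16 and those of Foxk2 spanned 0.25, with a median of 0.55 among 302 genes with 4. The 3 of Asxl2 spanned 1.03, with a median of 0.40 among 880 genes.

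Within single arrays the most and the least raised bright probe set of each gene were subtracted, and the groups lay apart in 4 genes. For Foxk1, 1434655_at minus 1451752_at was 0.34, 1.64 and 1.43 in ASXL1-MT marrow, against -0.64, -0.60 and -0.34 in mock marrow. For Asxl1, 1434561_at minus 1435077_at was 0.15, 1.05 and 0.81 in the ASXL1-MT arrays, against -0.71, -0.76 and -0.44 in the mock arrays. For Ogt, 1460631_at minus 1451738_at was 0.16, 0.65 and 0.70 in ASXL1-MT marrow, against -0.65, -0.83 and -0.48 in mock marrow. For Asxl2, 1460597_at minus 1444754_at was 0.08, 0.26 and 1.54 in the ASXL1-MT arrays, against -0.06, -0.28 and -0.88 in the mock arrays, the widest spread of the 4. The groups did not overlap in any of the 4, and ASXL1-MT replicate 1 was the ASXL1-MT array nearest to mock each time. The pairs were picked for the largest and smallest change between the groups, so the separation is partly built in and no test was made. The Foxk1 pair also holds 1451752_at, bright through its mock arrays. In such a difference a shift equal for all probe sets of an array cancels, while one that differs between probe sets does not. Neither was tested.

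**Figure D3:**
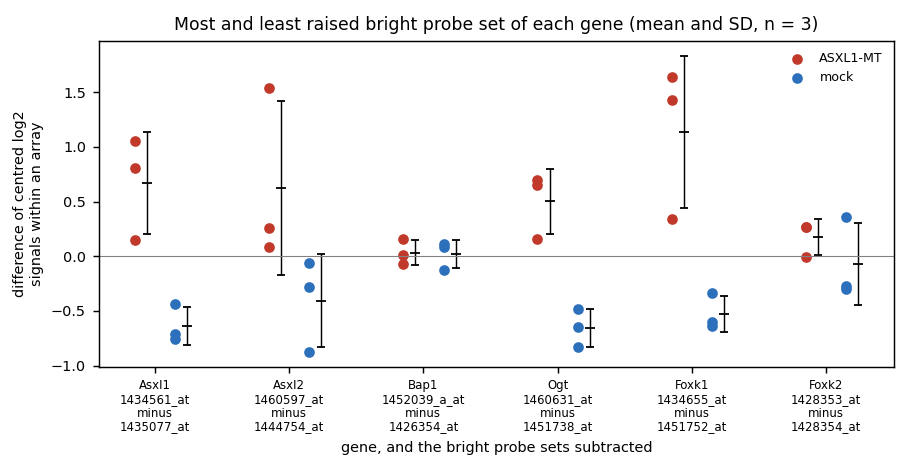
Difference between the most and the least raised bright probe set of each gene within each array, for ASXL1-MT (red) and mock (blue), with mean and SD beside the points (n = 3). The groups do not overlap for Foxk1, Asxl1, Ogt and Asxl2, and they overlap for Bap1 and Foxk2. The pairs were picked by their changes.

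Averaged over probe sets, no gene of the complex was called, against 11.4% of all 18193 genes, 6.63% higher and 4.75% lower. At an unadjusted p under 0.05 there was 1 of 9, Foxk2, against 29.1% of all genes. Foxk2 was 0.10, 0.31 and 0.41 in the ASXL1-MT arrays, against -0.30, -0.28 and -0.29 in the mock arrays, and was 1.48-fold higher (log2 change 0.56, 95% interval 0.21 to 0.92, adjusted p = 0.0637 by limma). On bright probe sets alone it passed (log2 change 0.42, adjusted p = 0.0262). These include 1440689_at, bright through its ASXL1-MT arrays, so that pass of Foxk2 gives no support. The gene also passed with trend and robust settings (adjusted p = 0.0214). It failed after quantile normalization (adjusted p = 0.0903), cyclic loess (adjusted p = 0.111) and equal array medians (adjusted p = 0.0887), with the replicate block (adjusted p = 0.169), by its tightest probe set (adjusted p = 0.0562) and without any 1 array (adjusted p between 0.0755 and 0.19). In order, the gene changes were -0.22 for Bap1, -0.20 for Mbd6, -0.16 for Asxl3, -0.13 for Foxk1, -0.10 for Asxl1, 0.25 for Hcfc1, 0.30 for Asxl2, 0.30 for Ogt and 0.56 for Foxk2. The intervals of each neighbouring pair in that order overlapped. The groups were separate in 4 of 9 genes (44.4%), Foxk2 upward and Asxl1, Bap1 and Mbd6 downward, against 37.9% of all genes, 23.5% upward and 14.4% downward. The mean for Asxl1 averages probe sets of opposite sign. On its bright ones alone the gene passed as lower (log2 change -0.54, adjusted p = 0.00965 by limma). In that fit 43.8% of the 9421 genes with a bright probe set passed, in either direction. It leaves out 1458380_at of Asxl1, which was higher (0.79). The bright probe sets of Asxl1 also differed, with -1.19 in 1435077_at and 0.11 in 1434561_at, so the -0.54 describes neither of them. Among bright probe sets fitted alone, 6 of 19 members passed (31.6%), against 39.4% of all bright probe sets. Beside the called probe sets of Asxl1 and Asxl2 these were 1460631_at of Ogt, 1434655_at and 1451752_at of Foxk1 and 1428353_at of Foxk2. The call of 1451752_at there rests on being bright in mock and supports nothing.

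The gene lists from here on were chosen with earlier results of these data known, so their shares beside those of all genes are descriptions. Several genes listed with the ligases that place the H2A mark were higher in ASXL1-MT. Measured were 14 genes listed with those of Polycomb repressive complex 1. A bright probe set was present for 11 of the 14, a larger share than the 9421 of all 18193 genes. In the fit of all probe sets 13.8% of bright ones were called, against 8.1% of all. The list's share called is therefore set beside genes that are less often bright. Of the 14, 4 rose and 0 fell (28.6%, against 11.4% of all genes called and 6.63% called higher), with a median change of 0.28 against 0.11 for all genes. Of these, Pcgf6, which defines a ligase variant with MGA and MAX, was 0.81, 0.95 and 1.00 in ASXL1-MT marrow, against -1.13, -1.03 and -0.93 in mock marrow. It was 3.86-fold higher (log2 change 1.95, adjusted p = 0.00753) and passed with each array left out. Bmi1, a stem cell ligase subunit, was 2.26-fold higher and passed in 3 of the 6 fits without 1 array. Bcor and Kdm2b, which share a variant that binds CpG islands, were 1.99-fold and 1.89-fold higher. Bcor passed in 2 of those 6 fits and Kdm2b in 0. The ubiquitin ligase Rnf2 changed by -0.60 on the log2 scale (adjusted p = 0.31) and Ring1 by 0.06 (adjusted p = 0.877).

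Of 12 other deubiquitinases of H2A or their relatives, 0 rose and 1 fell (8.33%, near the 11.4% of all genes), with a median change of 0.01. Usp46, an enzyme reported to act on histones in frogs, was -0.51, -0.44 and -0.53 in the ASXL1-MT arrays, against 0.46, 0.47 and 0.43 in the mock arrays, 1.93-fold lower (adjusted p = 0.015). Mysm1, an H2A deubiquitinase needed for blood formation, gave a change of -0.04 on the log2 scale (adjusted p = 0.962), and Usp16 of -0.35 (adjusted p = 0.374). Of 10 other partners, substrates and relatives of BAP1, 3 rose and 0 fell (30.0%, against 11.4% of all genes), with a median of 0.36. Kdm1b, a histone demethylase found with the complex, was 0.26, 0.33 and 0.50 in ASXL1-MT marrow, against -0.45, -0.50 and -0.26 in mock marrow, 1.70-fold higher (adjusted p = 0.0336), and lost its call after cyclic loess (adjusted p = 0.0512) and with each array left out. Itpr3, a calcium channel that BAP1 deubiquitinates in human cells, was 2.37-fold higher. Uchl1, a deubiquitinase of the same catalytic family best known from neurons, was 9.14-fold higher (adjusted p = 0.0112), but its only probe set was not bright and the size is uncertain. With 1 array left out, Uchl1 passed in 5 of 6 fits, Itpr3 in 3 and Usp46 in 2.

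Around OGT, 9 genes of O-GlcNAc cycling and sugar nucleotide synthesis were measured, of which 2 rose and 0 fell (22.2%, against 11.4% of all genes), with a median of 0.35. Eogt, which modifies secreted proteins, was 2.38-fold higher without a bright probe set among its 3, and Nagk, which salvages N-acetylglucosamine, was 2.03-fold higher. Eogt passed in 3 and Nagk in 1 of the 6 fits without 1 array. Oga, the enzyme that removes what OGT adds, is named because of its values. It was -0.34, -0.26 and -0.38 in the ASXL1-MT arrays, against 0.68, 0.24 and 0.28 in the mock arrays, with all 6 probe sets bright. Its groups were separate and its log2 change of -0.73 missed the threshold (adjusted p = 0.0552). It passed with equal array medians (adjusted p = 0.0446), quantile normalization (adjusted p = 0.0382) or cyclic loess (adjusted p = 0.0394). It missed the threshold with the replicate block (adjusted p = 0.152) and on leaving out any array (adjusted p between 0.0944 and 0.166).

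HCF-1 works through many DNA-binding and chromatin partners. Of 17 measured, 0 rose and 1 fell (5.88%, against 11.4% of all genes), with a median of 0.16. The gene that fell was Max, the dimer partner of MYC, at -0.44, -0.80 and -1.02 in ASXL1-MT marrow against 0.76, 0.44 and 0.57 in mock marrow, 2.54-fold lower (adjusted p = 0.0207). Its call held in just 1 of the 6 fits without 1 array. Thap11, whose motif stands in the Asxl1 window, gave a change of 0.42 on the log2 scale (adjusted p = 0.312), and Gabpa of 0.02 (adjusted p = 0.923).

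**Figure D4:**
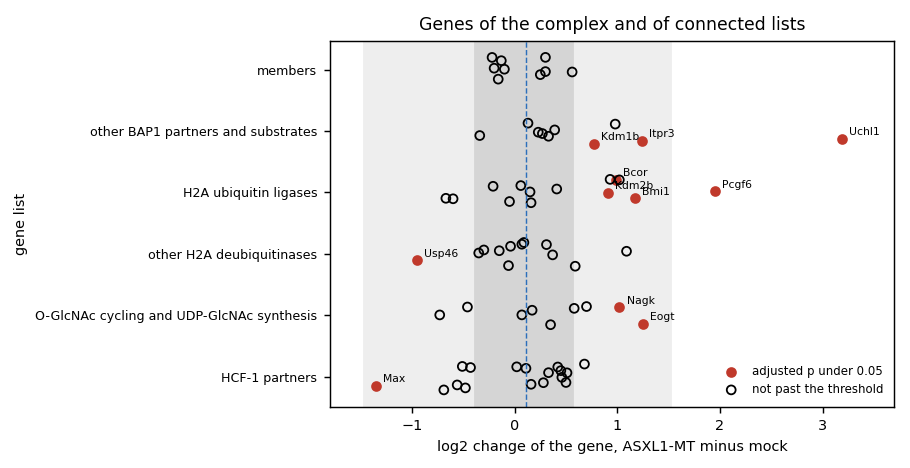
Log2 change (ASXL1-MT minus mock) of each measured gene in the complex and in 5 connected lists, with red points past an adjusted p of 0.05 and open points not. The dark band holds the middle of all genes from -0.39 to 0.57, the light band the range from -1.47 to 1.52 between their 5th and 95th percentiles, and the dashed line their median of 0.11; the 9 genes of the complex lie within the dark band.

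Likeness over the 6 arrays was described by Pearson's r of gene values among the members and the connected lists, each gene against 70 others. Bap1 was most like Max (r = 0.95), Pcgf5 (r = 0.93) and Usp46 (r = 0.90). Asxl2 was most like Pcgf1 (r = 0.91), Pcgf3 (r = 0.80) and Pgm3 (r = 0.73), and Asxl1 was most like E2f4 (r = 0.91), Wdr5 (r = 0.79) and Usp46 (r = 0.75). The points share arrays, array brightness and the group difference, so such values describe these 6 arrays. The genes named were picked as the most alike of 70. The value of Asxl1 averages probe sets of opposite sign, and E2f4 and Pcgf1 had no bright probe set.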

How the data were processed

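RNA of 6 samples was hybridised to Affymetrix arrays, and the signals were made with MAS5, per the submitters' processing notes. The deposited values were taken as log2; base and centring are stated in no source used here and were read from the values, whose row medians were within 5.0e-07 of 0. The array medians ran from 0.021 to 0.050 in ASXL1-MT and from -0.053 to -0.028 in mock. Bright probe sets, 17205 of 45037, were those whose 3 highest arrays were whole multiples of the rounding step with exponent 20, within 0.1 of a step. Of the probe sets 34945 had 1 symbol, and a gene's value was their mean. The fit used limma 3.58.1 (lmFit, then eBayes, in R 4.3.3), two-sided, with group as the only term. It was also run on simulated data with planted changes larger than any seen in a member. That run therefore does not show how the fit handles changes of the members' size. Members and gene lists were chosen with earlier results of these data known. Every member was named; each other list gave up to 4 called genes by largest change, or else the 2 with the smallest p. Genes given beyond that for their role were chosen after their values were seen. Alternatives were other normalizations, a variance trend, bright probe sets alone, a replicate block, the probe set of smallest spread and leaving out each array. Same-numbered arrays were not paired, with correlations of deviations from -0.012 to -0.009. The number of arrays limits the precision.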

Additional observations from a re-analysis of the deposited data

How the results depend on the processing

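Calls depended on the settings more than changes did. Calls over all probe sets numbered 3646, and 5816 with trend and robust settings, 6778 on bright probe sets alone, 0 with the replicate block and 66 to 1142 with an array left out. For genes they numbered 2072, and 4128 on bright probe sets, 3898 with the probe set of smallest spread, 0 with the block and 192 to 1033 with an array left out. Higher calls were 58.4% of those over probe sets, 47.9% after quantile normalization, 46.2% after cyclic loess and 49.9% with equal medians, where the median change of 0.106 became 0.016, 0.004 and 0.024. The 2 calls among members became 1 after quantile normalization or loess, 3 with trend and robust settings (1442933_at of Foxk2 added), 6 on bright probe sets, 0 with the replicate block and 0 to 1 with an array left out, the 1 being 1451752_at of Foxk1 without ASXL1-MT replicate 1 (-1.40, adjusted p = 0.0456). No member gene was called, against 2 on bright probe sets, 1 with trend and robust settings (Foxk2) and 1 (Asxl1) where the tightest probe set stood for the gene. Numbers in the titles do not pair the arrays, and the block left few residual degrees of freedom. Changes that did not pass turned sign as follows: 1439063_at of Asxl2 after loess (-0.00061); with an array left out 1434561_at (-0.03 to 0.27), 1444754_at (-0.28 to 0.49), 1458366_at (-0.89 to 0.85), 1442095_at (-0.14 to 0.48), 1421759_a_at (-0.51 to 0.60), Foxk1 (-0.33 to 0.01) and Asxl3 (-0.49 to 0.18); and by the tightest probe set Asxl3 (0.17) and Foxk1 (0.53). Apart from fewer probe sets tested or fewer arrays, the causes were not tested.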
